A study of Homo sapiens with 9 samples.

Results

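Oxidative phosphorylation depends on proteins encoded in the nucleus and in mitochondrial DNA, and the nuclear genes examined here are those whose symbols name subunits of the 5 enzyme complexes of the inner mitochondrial membrane. Members were chosen by symbol alone: those starting with NDUFA, NDUFB, NDUFC, NDUFS or NDUFV and a digit, the symbols SDHA, SDHB, SDHC and SDHD, and those starting with UQCR, ATP5 or COX4 to COX8. Of 25680 gene symbols in the files, 93 matched. They comprised 74 subunit genes, with 37 of complex I, 4 of complex II, 8 of complex III, 10 of complex IV and 15 of complex V, and 19 other symbols, among them antisense and readthrough transcripts, gene copies, tissue-specific isoforms and related factors. For 40 of the 93 symbols the files held more than 1 RefSeq transcript, and the transcript with the highest total over all samples was used.

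The samples were 9 bulk RNA libraries of SKNO-1, a line of human acute myeloid leukaemia cells expressing AML1-ETO, the fusion of RUNX1 with RUNX1T1. Cells carried 1 of 2 short hairpin RNAs (shRNAs) directed at ASXL2, an epigenetic regulator recurrently mutated in this leukaemia, or a control. The ASXL2 shRNA groups are SH2 and SH3; the control group is EV, an abbreviation the labels do not spell out and for which the study's text has a control shRNA. Each group had 3 samples, numbered 1, 13 and 25 in the labels with no statement of what the numbers mean. The study cultured this line with GM-CSF, and the protocol attached to the samples instead speaks of sorted bone marrow cells, so the cell line was taken from the other labels.

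Electrons from NADH enter the respiratory chain at complex I and those from succinate at complex II, pass through complex III and cytochrome c, and reduce oxygen at complex IV. Complexes I, III and IV pump protons, and complex V, the ATP synthase, uses the resulting gradient to make ATP. Complexes I, III, IV and V each include subunits encoded in mitochondrial DNA, whereas complex II is encoded wholly in the nucleus. No mitochondrially encoded transcript had an entry in the files, so only the nuclear side could be measured.

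Library totals with 1 transcript per symbol were between 27714431 and 35406063 counts. Values below are CPM, counts divided by the library total after TMM scaling (trimmed mean of M values) and times 1e+06, and 3 counts, taken as the lower limit of what could be seen, corresponded to 0.0825 to 0.109 CPM depending on the sample; this limit covers counting error only. ASXL2 itself was between 67.9 and 74.7 CPM in EV and between 26.9 and 41.1 CPM in the 6 knockdown samples (exact permutation test, two-sided p = 0.0119, the smallest that 84 splits allow). The myeloid genes MPO and CD33 were at 6368 CPM or more and 88.2 CPM or more in every sample, while CD34 did not exceed 0.309 CPM. Of 9 markers of T cells, fibroblasts, erythroid and epithelial cells, CD3E, COL1A2, HBB and KRT19 were at 0 in every sample, and the summed level of all 9 was 0.0335 to 0.208 CPM. The 3 samples numbered 1 stood apart from the rest on the first principal component, which held 52.9% of the variance. Their scores were -24.9 in EV, -21.2 in SH2 and -58.6 in SH3, against 4.84 to 25.0 in the other 6. SH3 number 1 thus lay farthest out, and several of the counts below are given without it too. Same-numbered samples of different groups deviated together, and each knockdown comparison is therefore given both without and with the number as a block, the latter called the paired fit.

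Of the 93 members, 85 passed the filter on low counts, which 14199 genes passed in all. All 74 subunit genes were among them. The 8 members below the filter were COX4I2, COX6A2, COX6B2, COX7A1, COX7B2, COX8C, ATP5L2 and UQCRBP1. The first 6 encode isoforms of complex IV subunits that are used mainly in particular tissues such as lung, muscle or testis. COX4I2, COX6A2 and COX7B2 had no count in any of the 9 samples, and COX6B2, COX7A1 and COX8C reached at most 0.17, 0.218 and 0.34 CPM. The gene copies ATP5L2 and UQCRBP1 reached 0.173 and 0.409 CPM. Besides the subunit genes, 11 members passed: NDUFA6-AS1, NDUFB2-AS1, NDUFV2-AS1, NDUFC2-KCTD14, NDUFA4L2, UQCRHL, COX7A2L, ATP5S, ATP5SL, ATP5J2-PTCD1 and ATP5EP2. NDUFA4L2, a paralogue of NDUFA4, was at 0.44 to 1.63 CPM, and COX7A2L, which takes part in joining complexes III and IV into supercomplexes, at 79.4 to 102 CPM. The widely expressed partners of the tissue isoforms were abundant, with COX4I1 at 255 to 335 CPM and COX6A1 at 62.9 to 97.9 CPM. Together the 93 members took 1.03% to 1.32% of the scaled library.

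Promoter sequences of the genes that the results turn on are shown because nuclear respiratory chain genes are known targets of nuclear respiratory factor 1 (NRF1) and of ETS family factors such as GABP. The sequences are RefSeq entries on GRCh38.p14, and 71 of the 93 members had one, 61 of them subunit genes. Each line gives the 250 bases before the annotated start, 5′ to 3′ on the strand of the gene, with matches to the searched motifs in capitals. The first 3 genes had the smallest p in the paired comparison of both shRNAs with EV among those with a single annotated start, NDUFS6 had the smallest p in the comparison of sample numbers, and ATP5G1 is 1 of 3 genes for the same protein.
NDUFB4: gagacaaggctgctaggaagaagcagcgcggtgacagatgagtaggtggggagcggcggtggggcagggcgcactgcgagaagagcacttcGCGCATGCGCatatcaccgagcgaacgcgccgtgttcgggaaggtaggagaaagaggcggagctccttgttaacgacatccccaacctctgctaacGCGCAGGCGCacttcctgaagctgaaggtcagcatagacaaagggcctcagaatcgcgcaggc
ATP5I (ATP5ME): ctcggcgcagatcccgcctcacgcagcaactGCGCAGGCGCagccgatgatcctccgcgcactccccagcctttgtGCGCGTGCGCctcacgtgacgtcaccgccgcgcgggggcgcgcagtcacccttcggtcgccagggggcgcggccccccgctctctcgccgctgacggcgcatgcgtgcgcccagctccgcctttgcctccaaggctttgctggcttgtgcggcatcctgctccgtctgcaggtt
ATP5O (ATP5PO): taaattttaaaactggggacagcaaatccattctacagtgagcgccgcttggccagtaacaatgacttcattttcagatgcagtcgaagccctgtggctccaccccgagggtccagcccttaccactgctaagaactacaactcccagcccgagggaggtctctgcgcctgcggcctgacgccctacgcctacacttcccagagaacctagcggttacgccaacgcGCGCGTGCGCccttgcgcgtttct
NDUFS6: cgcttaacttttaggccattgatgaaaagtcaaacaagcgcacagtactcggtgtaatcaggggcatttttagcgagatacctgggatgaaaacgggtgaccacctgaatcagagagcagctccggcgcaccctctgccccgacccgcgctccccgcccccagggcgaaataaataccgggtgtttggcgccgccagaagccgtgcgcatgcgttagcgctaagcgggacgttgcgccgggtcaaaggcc
ATP5G1 (ATP5MC1): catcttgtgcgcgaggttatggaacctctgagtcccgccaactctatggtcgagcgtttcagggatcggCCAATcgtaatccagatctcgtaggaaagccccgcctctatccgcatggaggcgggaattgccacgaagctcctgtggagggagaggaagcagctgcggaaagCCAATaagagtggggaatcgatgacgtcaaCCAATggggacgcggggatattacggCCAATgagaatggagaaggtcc

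These windows lie at chr3:120596086-120596335 (plus strand) for NDUFB4, chr4:674277-674526 (minus) for ATP5I, chr21:33915805-33916054 (minus) for ATP5O, chr5:1801157-1801406 (plus) for NDUFS6 and chr17:48892537-48892786 (plus) for ATP5G1, all on GRCh38.p14. The motifs searched on both strands were the full NRF1 site, which is the first capital run in the NDUFB4 line, its looser core, which keeps the GCGC at either end and allows any bases between them and so includes the full site, the ETS site CCGGAAG, the YY1 site AAGATGGCG and the CCAAT box. NDUFB4 held the full NRF1 site 159 bases before its start and a second core match 63 bases before it. ATP5I held 2 core matches and ATP5O held 1, which began 24 bases before the start. The window of ATP5G1 had no NRF1 core but held 4 CCAAT boxes, and that of NDUFS6 held none of the 5 motifs, which says only that these letters are not in those 250 bases. Over the 61 subunit genes, 14 held the NRF1 core (23.0%, against 8.70% of the 27305 genes with an entry) and 17 the ETS site (27.9%, against 10.2%). The full NRF1 site was in 3 subunit genes (4.92%, against 1.28%), the YY1 site in 1 (1.64%, against 0.784%) and the CCAAT box in 19 (31.1%, against 10102 of the 27305 genes). These are matches of letters, not measured binding.

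The central comparison asked whether transcripts of the respiratory chain and ATP synthase differed between cells with reduced ASXL2 and control cells. Most subunit genes were modestly higher with either shRNA, in each of the 5 complexes. With edgeR at its default filter on all 9 samples, NDUFB4 alone passed the test across all genes, and that in the paired fit. With length and GC content as offsets NDUFB4 did not pass either. DESeq2, edgeR without the filter and the fit without SH3 number 1 called more members, as given further on. The summed level of the 93 members was 10332, 11416 and 11644 CPM in the EV samples numbered 1, 13 and 25. It was 12943, 12324 and 12799 CPM in SH2 and 11466, 13179 and 12615 CPM in SH3. Of the 6 knockdown sums, 5 were above all 3 EV sums, and SH3 number 1 lay between EV number 13 and EV number 25. In bulk RNA, fewer cells with a given level and less RNA in each cell cannot be told apart.

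With the mean of both shRNAs set against EV in the paired fit, the median log2 difference over the 85 tested members was 0.19, a fold of 1.14, and 80 of 85 were above 0. Over all 14199 genes the median was 0.01 and 52.1% were above 0. Median differences by complex were 0.19 for complex I, 0.15 for complex II, 0.20 for complex III, 0.24 for complex IV and 0.18 for complex V, all on the log2 scale. Only NDUFS1, NDUFA10, ATP5S and the antisense transcripts NDUFA6-AS1 and NDUFV2-AS1 lay below 0.

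**Figure D1:**
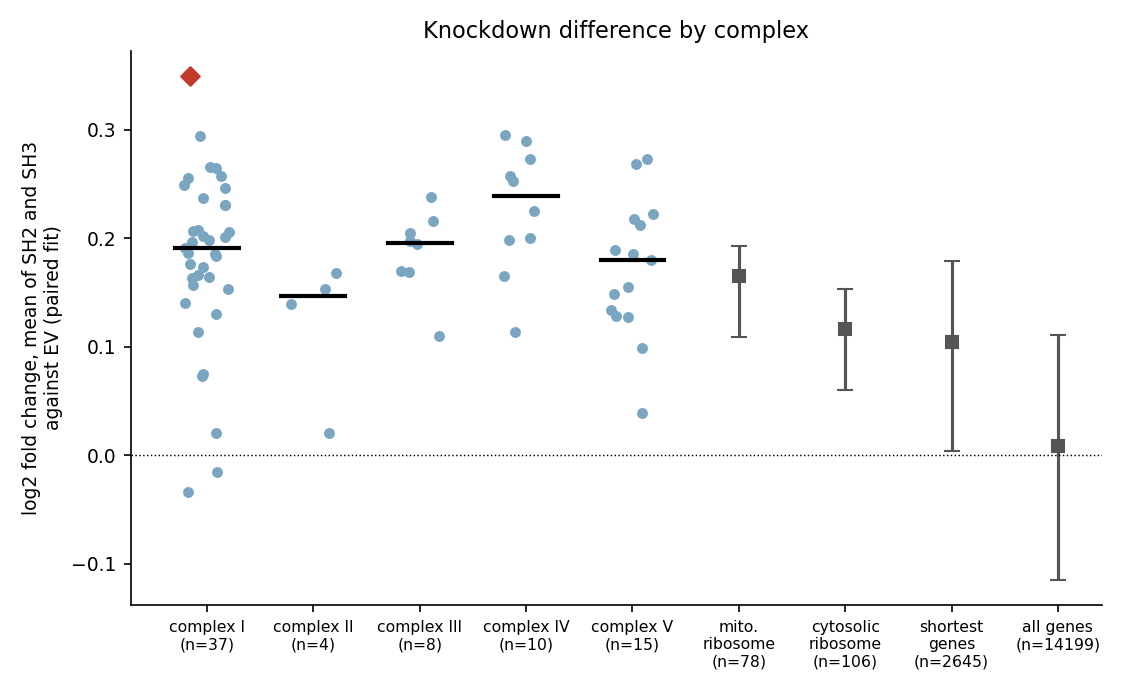
Log2 fold change of the mean of SH2 and SH3 against EV in the paired fit (vertical axis) for each subunit gene, grouped by complex (points, with a horizontal line at the median), beside the median and the middle 50% of 4 reference sets (squares with bars). NDUFB4, the red diamond, was the only member past the adjusted threshold in this fit, and the medians of the 5 complexes lay between 0.15 and 0.24.

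In the fit without the number, edgeR called no member and no gene (0% of 14199) for either shRNA, for their mean or between the shRNAs. At an unadjusted p under 0.05, 27 members were higher and 0 lower for the mean of both shRNAs, where 2.47% of all genes were higher and 4.16% lower. The same counts were 19 and 0 for SH2 (background 1.86% and 3.51%) and 12 and 0 for SH3 (background 2.12% and 2.97%). DESeq2 without the number called 2 members among 56 genes for the mean, NDUFB4 and ATP5O, with no member lower. For SH2 and SH3 it called NDUFB4 alone of the members, among 25 and 26 genes. With the number, DESeq2 called 16 members higher for the mean, 12 for SH2 and 5 for SH3. The genes it called there in either direction were 622, 374 and 474. The paired fit in edgeR called 156 genes for the mean (1.1%), and 36 of them were higher (0.254%), with NDUFB4 as the only member. It called 0 members for SH2 (background 0.282%) and 0 for SH3 (background 0.416%). At an unadjusted p under 0.05 the paired fit had 55 members higher and 0 lower for the mean (9.49% and 11% of all genes), 57 and 0 for SH2 (8.57% and 10.1%) and 39 and 0 for SH3 (9.38% and 9.3%). By complex, that p was reached by 24 of 37 subunit genes of complex I, 2 of 4 of complex II, 7 of 8 of complex III, 9 of 10 of complex IV and 9 of 15 of complex V. Both shRNA comparisons use the same 3 EV samples, so they are not independent of each other.

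One library, SH3 number 1, weighed heavily on the number of calls. It was singled out after the data were seen, and at 11466 CPM it had the lowest summed level of the knockdown samples. Leaving it out therefore favours the direction already observed. Without SH3 number 1 the paired fit called 54 members for the mean, all higher and 52 of them subunit genes, where 5.09% of all genes were called higher. The median over members was then 0.20 on the log2 scale, and the median standard error was 0.06 in place of 0.07. Leaving out any EV sample or any SH2 sample instead left 0 members called for the mean. SH2 against EV compares no SH3 sample, but it shares the fit. Without SH3 number 1 its paired calls went from 0 to 39 members and from 40 to 1604 genes in either direction. The rise in calls is therefore not only a matter of the level in SH3 number 1, and its cause was not tested.

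NDUFB4, an accessory subunit of complex I, spans chr3:120315183-120321354 (plus strand, GRCh37). The transcript counted was NM_001168331. Its level was 78.1, 79.1 and 82.2 CPM in EV for numbers 1, 13 and 25. In SH2 it was 106, 97.6 and 102 CPM, and in SH3 107, 103 and 94.2 CPM. All 6 knockdown samples lay above all 3 EV samples, and the gap between the groups exceeded the range within EV. The log2 fold change of the mean of both shRNAs was 0.35 with a standard error of 0.06, a fold of 1.27 (edgeR paired fit, adjusted p = 0.0379). Each shRNA alone gave 0.35, with adjusted p = 0.0738 for SH2 and 0.0621 for SH3, and without the number as a block NDUFB4 did not pass for the mean in edgeR but did in DESeq2.

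**Figure D2:**
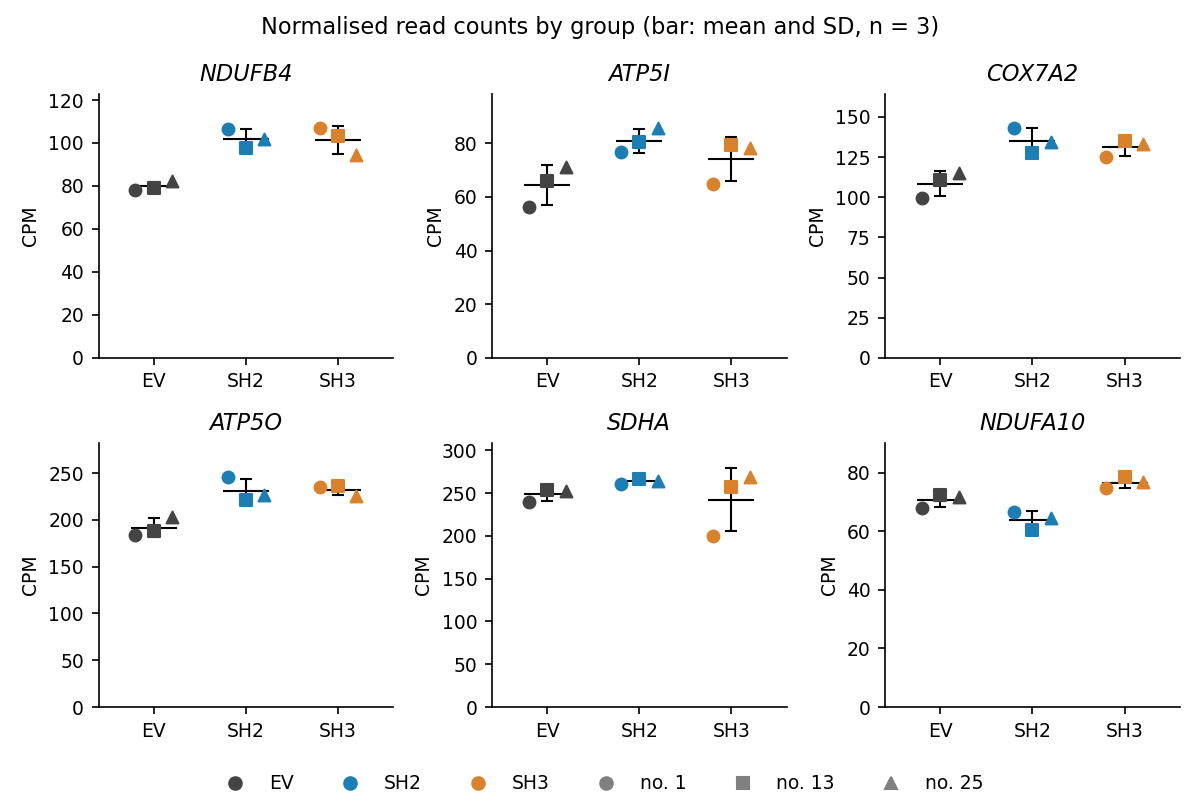
CPM of 6 members by group (EV, SH2 and SH3 on the horizontal axis), with 1 point per sample, the shape giving the sample number, and bars for the mean and SD (n = 3). For NDUFB4, COX7A2 and ATP5O all knockdown points lie above all EV points, for ATP5I and SDHA the groups overlap, and NDUFA10 is at 60.5 to 66.5 CPM in SH2 and 74.7 to 78.5 CPM in SH3.

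ATP5I, COX7A2 and ATP5O followed NDUFB4 in order of p in the paired fit, and none of the 3 passed. ATP5I, the e subunit in the membrane part of the ATP synthase, was 56.2, 65.8 and 71.3 CPM in EV, 76.6, 80.3 and 85.7 CPM in SH2 and 64.8, 79.4 and 78.1 CPM in SH3. SH3 number 1 lay inside the EV range, though each knockdown sample was above the EV sample of its number. The log2 difference was 0.27 with a standard error of 0.06 (adjusted p = 0.0631). COX7A2, a small subunit of complex IV found in most tissues, was 99.8, 111 and 115 CPM in EV, 143, 127 and 135 CPM in SH2 and 125, 135 and 133 CPM in SH3. Its 6 knockdown values were all higher than its 3 EV values, with a log2 difference of 0.30 and a standard error of 0.07 (adjusted p = 0.0653). ATP5O, the subunit that joins the catalytic head of the ATP synthase to its peripheral stalk, was 184, 189 and 203 CPM in EV, 246, 221 and 227 CPM in SH2 and 235, 237 and 226 CPM in SH3. Here too the groups did not overlap, and the log2 difference was 0.27 (adjusted p = 0.0696).

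Complex I holds a hydrophilic arm that carries the flavin and the iron-sulphur clusters and a membrane arm that pumps protons. Its core subunits of the hydrophilic arm differed among themselves. NDUFV2 was 75.8, 85.3 and 91.2 CPM in EV, 95.9, 93.8 and 99.1 CPM in SH2 and 95.7, 102 and 94.5 CPM in SH3, so the groups did not overlap (log2 difference 0.21, adjusted p = 0.118). The log2 differences of NDUFS8, NDUFS3, NDUFS7 and NDUFV1 were 0.20, 0.16, 0.15 and 0.13. NDUFS1, the largest subunit of the complex, was by contrast 43.7, 54.5 and 55.9 CPM in EV, 44.1, 54.3 and 55.0 CPM in SH2 and 36.2, 57.1 and 55.8 CPM in SH3, with a log2 difference of -0.03 (adjusted p = 0.818). Its values followed the sample number and not the group. Among accessory subunits, NDUFA7 and NDUFA8 came next after NDUFB4 in order of p, at 0.24 (adjusted p = 0.0733) and 0.26 (adjusted p = 0.0789), and NDUFA4, a protein now assigned to complex IV, was at 0.29 (adjusted p = 0.094).

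Complex II links the citric acid cycle to the respiratory chain, since its SDHA and SDHB subunits oxidise succinate. SDHA, the flavoprotein, was 240, 254 and 252 CPM in EV, 261, 266 and 264 CPM in SH2 and 200, 257 and 269 CPM in SH3. Every SH2 value was above EV, whereas SH3 number 1 was the lowest of all 9 samples, and the difference of the mean was 0.02 (adjusted p = 0.901). SDHB, the iron-sulphur subunit, and the membrane anchors SDHC and SDHD had log2 differences of 0.14, 0.15 and 0.17, and each of the 3 was above its own-number EV sample in all 6 knockdown samples.

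Complex III passes electrons to cytochrome c and complex IV from there to oxygen, and for both the summed level did not overlap between EV and knockdown samples, with or without the scaling between libraries. The 8 genes of complex III summed to 1030, 1090 and 1080 CPM in EV and to 1174 to 1285 CPM in the knockdown samples. The 10 genes of complex IV summed to 1430, 1613 and 1603 CPM in EV and to 1699 to 1908 CPM with the shRNAs. The scaled sums of complexes I and II did overlap, through SH3 number 1. For complex I it lay at 2762 CPM, inside the EV range of 2557 to 3096 CPM. For complex II it lay at 466 CPM, below the EV range of 484 to 546 CPM. The other knockdown samples were above EV in both. UQCRC1 and UQCRC2, the core proteins of complex III, had log2 differences of 0.17 and 0.19, and UQCRFS1, the Rieske iron-sulphur protein, 0.11 (adjusted p = 0.428). In complex IV, COX7C was 256, 267 and 262 CPM in EV, 332, 295 and 282 CPM in SH2 and 357, 327 and 295 CPM in SH3. Within each group of knockdown samples number 1 was the highest for COX7C, and all 6 exceeded EV (0.26, adjusted p = 0.0845). COX6C was at 0.29 (adjusted p = 0.0727) and COX8A at 0.27 (adjusted p = 0.0785), while COX6B1 was at 0.11 (adjusted p = 0.366).

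The 15 genes of complex V summed to 4337, 4721 and 4749 CPM in EV and to 4816 to 5382 CPM with the shRNAs, a separation that did not hold without the scaling between libraries, where SH3 number 1 lay at 4655 CPM inside the EV range of 4454 to 4794 CPM. Per kilobase of transcript, the mean EV level was 804 CPM for ATP5J2, 680 for ATP5B, the catalytic beta subunit, 424 for ATP5A1, the alpha subunit, and 74.2 for ATP5D, the delta subunit of the central stalk. ATP5J2 shares exons with the readthrough transcript ATP5J2-PTCD1, which was at 242 to 331 CPM, so its level is uncertain. ATP5B was 1132, 1190 and 1268 CPM in EV, 1374, 1275 and 1359 CPM in SH2 and 1254, 1335 and 1356 CPM in SH3, a log2 difference of 0.15 (adjusted p = 0.263). ATP5D was 50.9, 53.7 and 52.2 CPM in EV, 57.8, 49.2 and 56.6 CPM in SH2 and 57.5, 50.4 and 51.4 CPM in SH3, with the groups overlapping (0.04, adjusted p = 0.776). ATP5C1, the gamma subunit that forms the rotating shaft, was at 0.16 and ATP5A1 at 0.10.

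**Figure D3:**
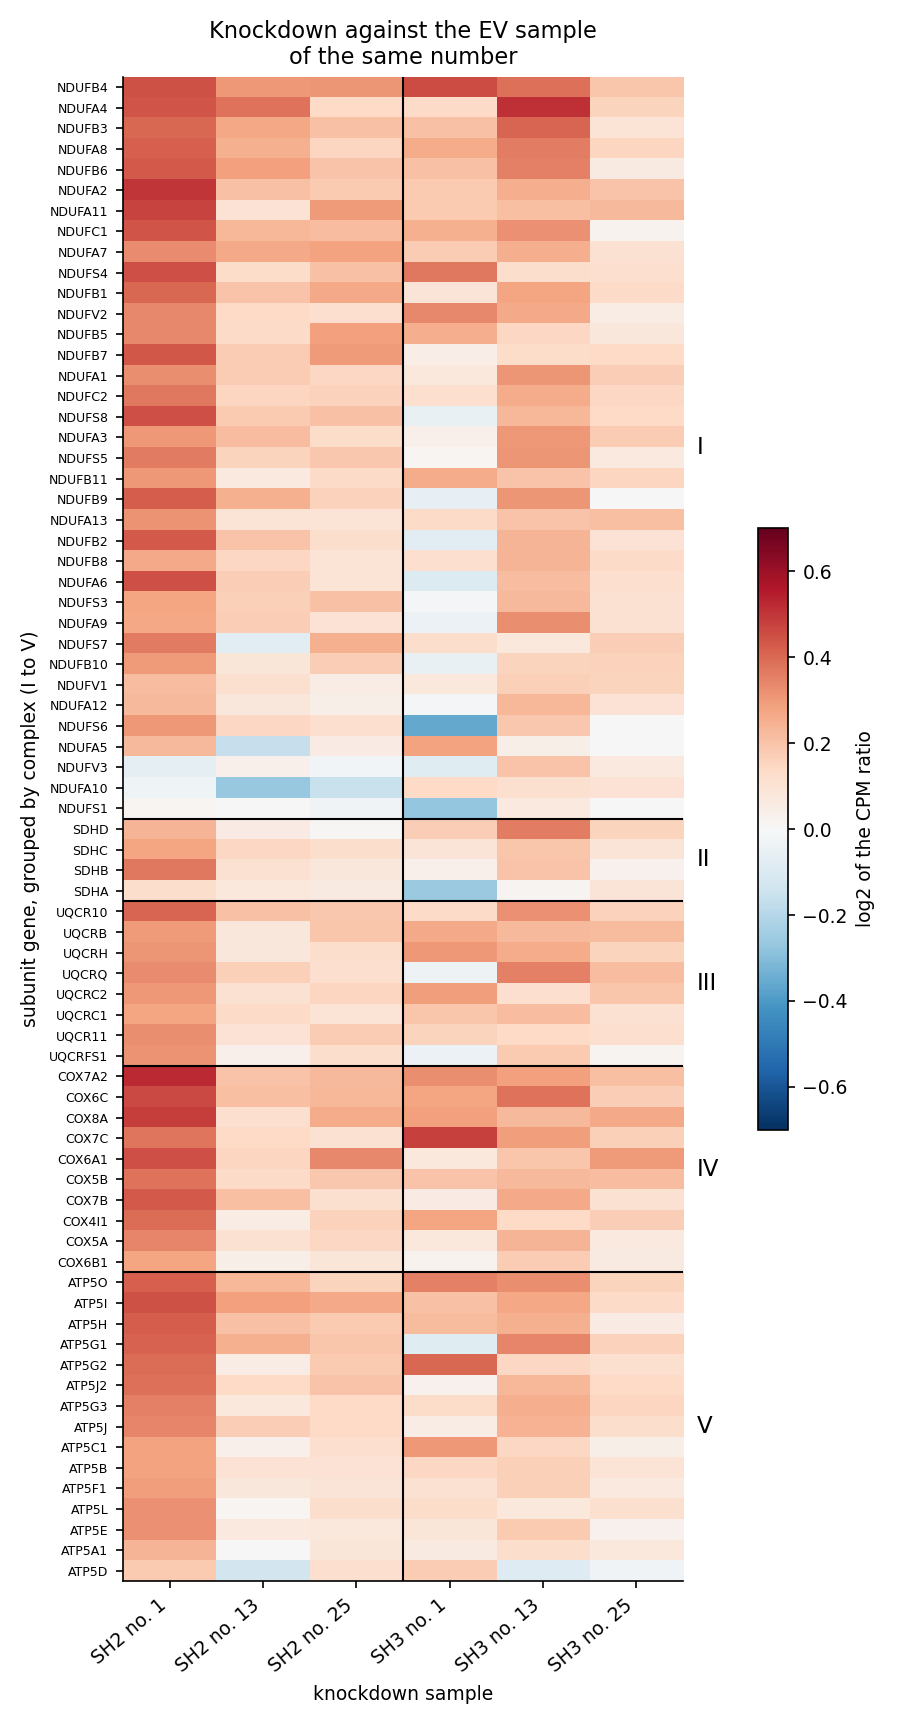
Log2 ratio of CPM in each of the 6 knockdown samples (columns) to the EV sample of the same number, for subunit genes (rows, grouped by complex and ordered by the paired log2 difference); red is higher than EV and blue lower. The SH2 number 1 column is the darkest red, and blue cells are most frequent under SH3 number 1.

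Set against the EV sample of their own number, 58 of 85 members were higher in all 6 knockdown samples, where 11.6% of all genes were, and 1, NDUFA6-AS1, was lower in all 6. In 19 of 85 members all 6 knockdown values exceeded all 3 EV values, against 2.16% of all genes, and in 0 they were all lower, against 2.61%. Without SH3 number 1 these counts were 72 of 85 (background 16.8%) and 48 of 85 (background 4.53%). The 19 included NDUFB4, NDUFB1, NDUFB5, NDUFB11, NDUFA2, NDUFS4, NDUFV2 and NDUFC2 of complex I, UQCRB, UQCRH, UQCRC1, UQCRC2 and UQCR11 of complex III, COX4I1, COX6C, COX7A2 and COX7C of complex IV and ATP5O of complex V. The remaining 1, the readthrough NDUFC2-KCTD14, shares reads with NDUFC2. The size of the difference varied with the pair of samples. The median over the 85 members was 0.34 for SH2 number 1 against EV number 1, and 0.14 for both SH2 number 13 and number 25. For SH3 the medians were 0.13, 0.23 and 0.12 for numbers 1, 13 and 25.

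Members were short genes, and in these libraries short genes as a class lay in the same direction. The median transcript length was 722 nucleotides for the 82 tested members with a length, against 2536 over 13209 genes, and 62 of the 82 belonged to the shortest of 5 length classes, 75 to 1446 nucleotides. That class as a whole had a median log2 difference of 0.10 for the mean of both shRNAs in the paired fit, with 75.4% of its genes above 0, and the longest class had -0.11. Among genes of the shortest class that were not members, 22.3% were above their own-number EV sample in all 6 knockdown samples and 4.26% did not overlap with EV. When length and GC content were fitted as offsets in the paired fit, the members' median was 0.12, with 77 of 82 above 0 and 30 higher at an unadjusted p under 0.05, where 7.87% of all genes were. No member then passed (0.257% of genes did), and NDUFB4 was at 0.25 (adjusted p = 0.0828). Medians by complex were 0.13 for complex I, 0.07 for complex II, 0.12 for complex III, 0.15 for complex IV and 0.10 for complex V with the offset. The part of transcript length in the members' difference was otherwise not tested.

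Genes around the respiratory chain gave a graded picture in the same paired comparison. Of 43 assembly factors tested, 38 were above 0, with a median log2 difference of 0.10 and 0 called. The 3 higher ones with the smallest p were COA5 at 0.21, COA6 at 0.27 and COX17, a copper chaperone for complex IV, at 0.25, with adjusted p from 0.0906 to 0.102, and COA7 was at -0.29 (adjusted p = 0.116). All 6 subunits and carriers that the symbol pattern leaves out were above 0 with a median of 0.20, from CYC1, the cytochrome c1 of complex III, at 0.23 (adjusted p = 0.0942) to CYCS, cytochrome c, at 0.08. The median was 0.05 for 13 citric acid cycle genes and 0.03 for 11 regulators of mitochondrial genes, which ranged from PPARGC1B at -0.26 to TFB1M at 0.25, with 0 called in both lists. Mitochondrial ribosomal protein genes had a median of 0.16 (76 of 78 above 0, 1 called) and cytosolic ribosomal protein genes one of 0.12 (89 of 106 above 0).

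SH2 and SH3 were next compared with each other. No member passed without the number (0% of genes called) or in the paired fit (0.106% of genes called), and at an unadjusted p under 0.05 the paired fit had 1 member higher in SH3, NDUFA10, and 1 lower, NDUFB7, where 7.28% and 4.64% of all genes were. DESeq2 called no member in the paired fit either. The median over members was -0.05 for SH3 minus SH2, and 65 of 85 were below 0. NDUFA10, an accessory subunit of complex I, was 67.9, 72.5 and 71.6 CPM in EV, 66.5, 60.5 and 64.4 CPM in SH2 and 74.7, 78.5 and 76.7 CPM in SH3. The 3 SH3 values were above EV and the 3 SH2 values below it, with no overlap among the groups, yet the difference of 0.26 with a standard error of 0.07 had an adjusted p of 0.182. How many of all genes show this order of groups was not counted.

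The second comparison set the samples numbered 1 against those numbered 13 and 25 over all 3 groups, to ask how far the members followed the number. Many did: 36 of 85 passed, where 46.3% of all genes passed, and 33 of the 36 fell in number 1. Among all genes 22.2% fell and 24.1% rose, so the members' share called was below the background while their direction was mostly downward. Without SH3 number 1, 20 members fell in place of 33. The genes called there in either direction stayed within a factor of 1.5 of the 6570 in the main fit. The share of all genes that fell was not computed for that fit, so the 20 cannot be set against a background. The median log2 difference was -0.12 over members, 0.01 over all genes and 0.00 over the shortest length class. What the number stands for is not known, and culture, preparation or sequencing cannot be told apart.

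**Figure D4:**
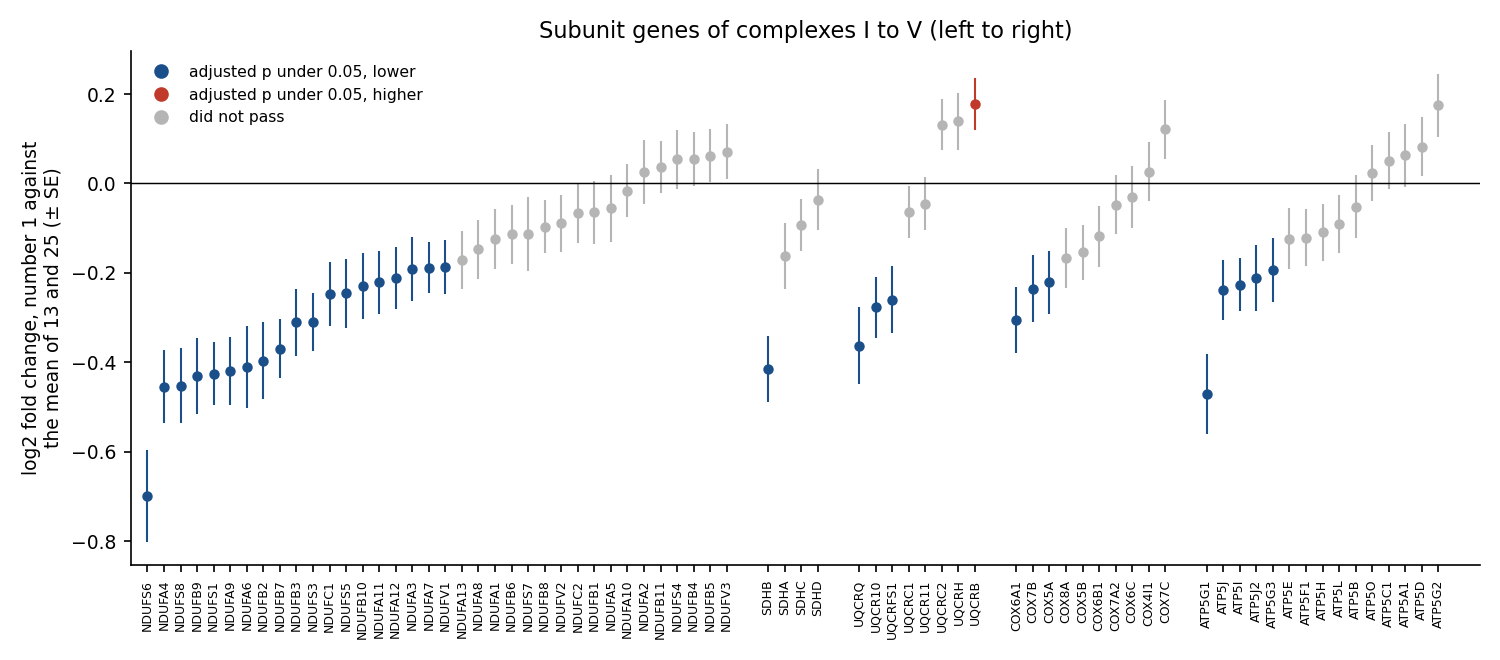
Log2 fold change of samples numbered 1 against the mean of those numbered 13 and 25, with bars of 1 standard error, for subunit genes in the order of complexes I to V; blue and red mark genes below and above 0 past the adjusted threshold. NDUFS6 lies lowest at -0.70, and UQCRB of complex III, in red, lies above 0 at 0.18.

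Complex I carried most of these calls, with 19 of its 37 genes lower. In complex II 1 of 4 fell, in complex III 3 of 8 fell and 1 rose, in complex IV 3 of 10 fell and in complex V 5 of 15 fell. NDUFS6, a zinc-binding subunit of the hydrophilic arm at chr5:1801521-1816162 (plus strand, GRCh37), fell most. It was 107, 150 and 179 CPM in EV for numbers 1, 13 and 25, 132, 165 and 194 CPM in SH2 and 83.4, 171 and 180 CPM in SH3. All 3 samples numbered 1 were below the other 6, SH3 number 1 was the lowest, and the log2 difference was -0.70 with a standard error of 0.10 (adjusted p = 0.000799). NDUFS1, whose 9 values are given above, also fell without overlap (-0.43, standard error 0.07, adjusted p = 0.00144), and NDUFA9 did so at -0.42 (adjusted p = 0.00209). These 3 were the members lower in all number 1 samples than in all others, where 12.1% of all genes were.

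SDHB was 59.5, 76.8 and 90.1 CPM in EV, 76.9, 82.7 and 95.3 CPM in SH2 and 60.9, 88.3 and 92.1 CPM in SH3. Number 1 was the lowest within each group, though SH2 number 1 just exceeded EV number 13, and the log2 difference was -0.42 (adjusted p = 0.00184). NDUFS8, which carries iron-sulphur clusters, and the accessory subunits NDUFB7 and NDUFA4 fell by 0.45, 0.37 and 0.45 on the log2 scale (adjusted p = 0.00228, 0.00188 and 0.00201). The antisense transcript NDUFB2-AS1 (-0.45) overlaps NDUFB2 (-0.40), and because the libraries were unstranded the reads of the 2 cannot be told apart.

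Few members rose in number 1, among them UQCRB, a ubiquinone-binding subunit of complex III, by 0.18 (adjusted p = 0.0271) and UQCRHL by 0.63 (adjusted p = 0.0056). UQCRHL is a copy of UQCRH at 2.88 to 6.23 CPM that may share reads with it, and UQCRH, at 298 to 389 CPM, differed by 0.14 (adjusted p = 0.0933). UQCRHL was the 1 member with all number 1 samples above all others, where 14.4% of genes were. UQCRB no longer passed in several of the alternatives given at the end.

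Taken group by group, median log2 differences over members were -0.19 in EV, with 76 of 85 below 0, 0.01 in SH2, with 41 below 0, and -0.21 in SH3, with 66 below 0. Tested as a difference between groups with edgeR on 3 residual degrees of freedom, no gene (0%) and no member passed in any of the 3 pairs of groups. At an unadjusted p under 0.05, 0 members differed between SH2 and EV, where 0.218% of all genes were higher and 0.937% lower in the SH2 term. By the same measure 1 member was lower in SH3 than in EV, where 2.58% of all genes were, and 11 of 85 were lower in SH3 than in SH2, where 4.15% of all genes were. DESeq2 was not run for this test. Each group had a single sample numbered 1, so the SH3 term rests on SH3 number 1 and cannot be given without it.

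**Figure D5:**
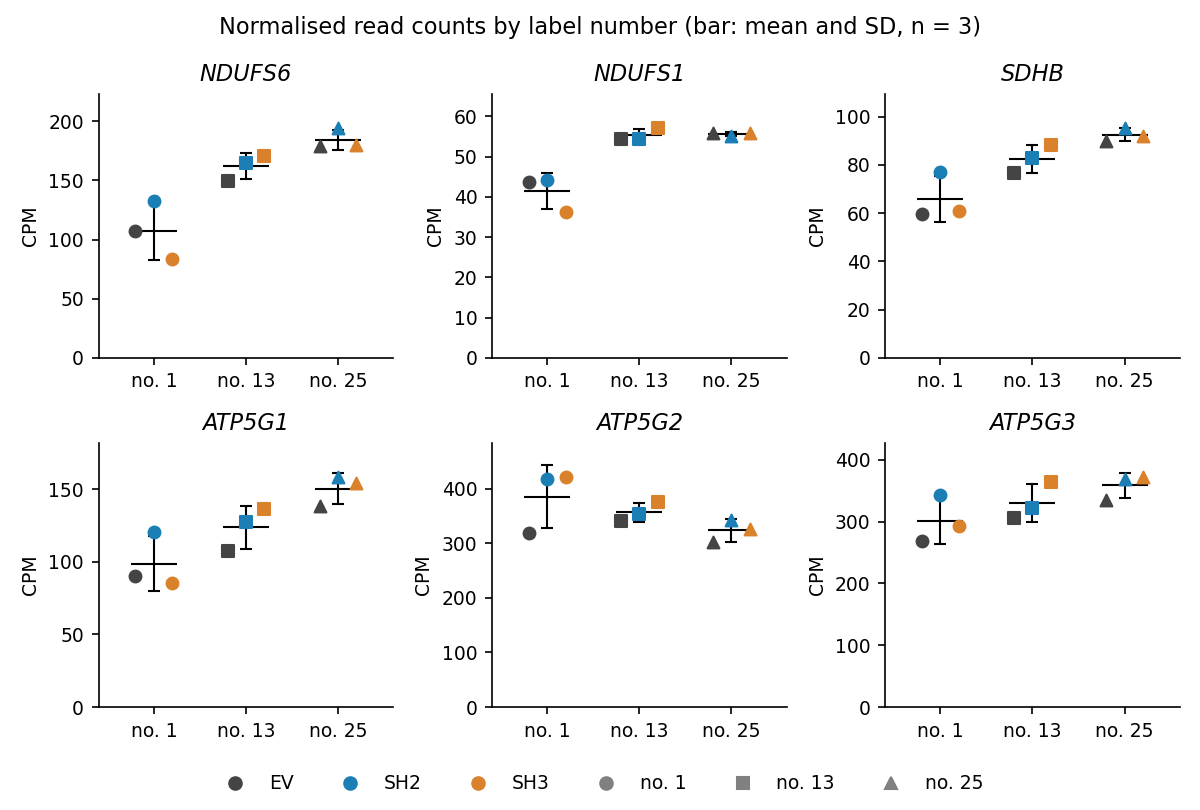
CPM of 6 members by sample number (1, 13 and 25 on the horizontal axis), with 1 point per sample coloured by group and bars for the mean and SD (n = 3). For NDUFS6 and NDUFS1 the 3 points at number 1 lie below the other 6, and ATP5G1 and ATP5G2 show opposite order, with ATP5G1 lowest and ATP5G2 highest at number 1 on average.

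ATP5G1, ATP5G2 and ATP5G3 encode precursors that yield an identical mature c subunit, the ring that turns in the ATP synthase, and differ in their import sequences. Per kilobase their mean EV levels were 208, 336 and 360 CPM. ATP5G1 was 90.5, 107 and 138 CPM in EV, 121, 128 and 158 CPM in SH2 and 85.3, 136 and 154 CPM in SH3, so number 1 was the lowest in each group (-0.47, adjusted p = 0.00238). ATP5G2 was 318, 340 and 301 CPM in EV, 417, 353 and 342 CPM in SH2 and 421, 376 and 326 CPM in SH3. There number 1 was the highest in both shRNA groups but not in EV, and the difference of 0.17 did not pass (adjusted p = 0.0617). ATP5G3, at 268, 305 and 335 CPM in EV, 343, 322 and 369 CPM in SH2 and 293, 364 and 372 CPM in SH3, fell by 0.19 (adjusted p = 0.0483).

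The balance among the 3 genes therefore differed with the number, in a comparison where 46.3% of all genes passed. Ratios of other gene pairs were not computed, and the permutations did not keep samples within their group or number. The log2 ratio of ATP5G1 to ATP5G2 averaged -1.97 ± 0.29 (SD, n = 3) in number 1 and -1.32 ± 0.25 (SD, n = 6) in the others. The difference of -0.65 had an exact permutation p of 0.0119, the smallest possible, and 0.0357 after adjustment over 6 tests. The ratio of ATP5G1 to ATP5G3 differed by -0.28 and that of ATP5G2 to ATP5G3 by 0.37 (exact permutation p = 0.0119 and 0.0238, adjusted 0.0357 and 0.0476). Between EV and the shRNAs the 3 ratios differed by 0.00, -0.03 and -0.03 (exact permutation p = 1, 0.798 and 0.893, all 1 after adjustment). A ratio shows unequal change and does not say which of its genes moved.

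Lists around the members mostly fell with the number too, in a comparison where 22.2% of all genes fell and 24.1% rose. Of the assembly factors 22 of 43 fell and 3 rose, with COA7 at -0.54, NDUFAF3 at -0.28 and NDUFAF4 at -0.72 among those that fell and LYRM7 at 0.39 among those that rose. Of 13 citric acid cycle genes 7 fell, among them IDH3A (-0.60) and IDH3B (-0.37). PPRC1 (-0.49), PPARGC1B (-0.47) and POLRMT, the mitochondrial RNA polymerase (-0.42), were among 7 of 11 regulators that fell, and CYCS (-0.53) and NDUFAB1 (-0.31) were the 2 of 6 subunits and carriers outside the symbol pattern that fell. Mitochondrial ribosomal protein genes fell in 42 of 78 cases and rose in 2 (median -0.19), whereas cytosolic ribosomal protein genes rose in 79 of 106 and fell in 10 (median 0.42). KIT, a marker of the line, also rose, by 0.36 (adjusted p = 0.0066), and its part in these differences was not tested.

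Samples numbered 25 and 13 differed little for the members. The median log2 difference was 0.02, and 1 member of 85 passed, where 5.87% of all genes did. ATP5S, a factor related to the ATP synthase rather than a subunit, was 13.7, 17.4 and 13.0 CPM in EV, 13.4, 16.3 and 13.4 CPM in SH2 and 12.9, 16.7 and 12.1 CPM in SH3. Number 13 was the highest in every group, and number 25 was lower than 13 by 0.39 on the log2 scale with a standard error of 0.09 (adjusted p = 0.0266). The next members by p were NDUFV3 at 0.21 (adjusted p = 0.108) and ATP5G1 at 0.28 (adjusted p = 0.119).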

How the data were processed

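RNA from 9 samples of SKNO-1 cells was sequenced as unstranded poly(A) libraries. The authors deposited whole-number counts per RefSeq transcript, not normalised, in 48104 rows per sample. The submitters' processing notes name STAR, featureCounts, DESeq2 and build hg19 (GRCh37), without program versions. Rows of 1 symbol often share reads, so each of 25680 symbols was represented by its row with the highest total, and a shift between isoforms can move such a count. UQCRH and UQCRHL, NDUFC2 and NDUFC2-KCTD14, ATP5J2 and ATP5J2-PTCD1, ATP5E and ATP5EP2, and UQCRB and UQCRBP1 can share reads, as can antisense transcripts.

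Counts were tested with edgeR 4.0.16 in R 4.3.3 (quasi-likelihood F test, trimmed mean of M values), after filterByExpr at its defaults (minimum count 10, minimum total 15). All 9 samples entered 1 fit with a coefficient per group (6 residual degrees of freedom), and the paired fit added the sample number (4 residual degrees of freedom). P-values were adjusted over all 14199 genes by the Benjamini-Hochberg method, with a threshold of 0.05. Standard errors are the log2 fold change divided by the square root of F. The numbers come from the labels; deviations of log2 CPM from group means correlated at 0.398 to 0.731 in all 9 same-numbered pairs of samples, so the numbers were taken to pair the samples. The study describes its replicates as biological triplicates, and whether they came from separate cultures is not given in the sources used here, so p-values measure the spread between these samples, which may be technical. Single values were compared by exact permutation over samples. Transcript lengths and GC content were medians over the basic GENCODE transcripts of a gene on GRCh37, found for 90 of 93 members, and the offset used a spline with 5 degrees of freedom. Motifs were searched with Python 3.11.15. Alternatives were DESeq2 1.42.0, its size factors in edgeR, no filter, a minimum count of 50, the mean of all rows of a symbol, the length and GC offset, and leaving out each sample. The scripts were tested on simulated data.

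Members and gene lists were chosen with earlier results of these data known. Genes named were core subunits, paralogues, up to 8 members per direction past the threshold by smallest p (otherwise the 3 with the smallest p), members below the filter and antisense or readthrough transcripts. Other members with values in the text were added after their values were seen. SDHAF3 and SDHAF4 had no matching symbol and were not analysed here. Some genes of these lists are counted but are not reported here by name, and are not drawn in plots that name genes.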

Additional observations from a re-analysis of the deposited data

Results flagged for a closer look

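NDUFA10, an accessory subunit of complex I, differed in direction between the shRNAs: against EV the log2 difference was -0.15 with SH2 and 0.12 with SH3 in the paired fit. All 3 SH2 samples were below and all 3 SH3 samples above the EV samples. It was found by searching the tested members for this pattern, and how many of all genes show it was not counted. The difference of SH3 minus SH2 was 0.26 (standard error 0.07, fold 1.20) and did not pass the test over all genes (edgeR adjusted p = 0.182, DESeq2 adjusted p = 0.114).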

How the results depend on the processing

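Calls depended on the setting far more than sizes did. The replicate block (the sample number as a block) raised the genes called from 0 to 40 for SH2, 59 for SH3, 156 for the mean of both and 15 for SH3 against SH2, and the members called for the mean from 0 to 1. With the block and the length and GC offset together 6, 43, 34 and 8 genes were called and 0 members, and the median for the mean moved to 0.12 on the log2 scale. DESeq2 without the block called 25, 26, 56 and 11 genes and 1, 1 and 2 members higher for SH2, SH3 and their mean. With the block, DESeq2 called 374, 474, 622 and 152 genes and 12, 5 and 16 members, and edgeR without a filter 307, 410, 563 and 162 genes and 2, 1 and 5 members. In the paired fit, genes with a length alone gave 73 calls for the mean, a minimum count of 50 gave 4 for SH2 and 79 for the mean, and the mean of all rows of a symbol gave 4 and 81. For number 1 against 13 and 25, members that rose numbered 1 without a group term, 1 with the offset and 5 at a minimum count of 50, and 17 fell without a group term. The genes called in either direction stayed within a factor of 1.5 of the main fit in all 16 alternatives. Their shares by direction were not computed, so these member counts have no background. For 25 against 13, dropping the group term gave 304 genes, and 0 members fell there or with the offset.

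Leaving out each sample in turn in the paired fit gave 0 to 1604 genes and 0 to 39 members for SH2, 1 to 368 and 0 to 4 for SH3, 2 to 1755 and 0 to 54 for the mean, and 0 to 257 genes between the shRNAs. Without the block it gave 0 to 1 genes for SH3 and 0 to 2 for the mean, with medians of 0.10 to 0.24 and 0.13 to 0.23 on the log2 scale. Members that rose in number 1 numbered 1 to 5 and those that fell 17 to 41, again without shares of all genes by direction. For 25 against 13 there were 50 to 2750 genes, 0 to 5 members that rose and 0 to 1 that fell. Omitting SH3 replicate 1 gave the highest paired counts for SH2, SH3 and the mean against EV. The cause of these shifts was not tested. Single members were followed only where they had the smallest p in the main fits of these same samples. Their 541 values under alternatives included 0 that changed sign, 493 on the same side of the threshold, 21 newly past it and 27 no longer past it. Because of how these members were picked, the lack of sign changes says little about the other members.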
